A study of Mus musculus with 8 samples.

Results

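Nuclear pore and nuclear transport genes were examined in mouse bone marrow MPPs (multipotent progenitors) that carried the NUP98-HOXA10hd fusion (NA) and in wild-type (WT) MPPs. The group was a list of 40 genes, made of 28 nucleoporin genes and 12 genes of transport receptors and of the Ran cycle, and its members were found by matching Ensembl gene identifiers to symbols. A row was matched for 39 of the 40 genes, out of 37980 rows in the table, and Nup62 is not analysed here. All mice were C57BL/6. NA mice were NA LSL/+; Vav-Cre, in which a transgene knocked into the genome is opened by Cre in blood cells. The controls are named only as WT, and whether they carried Cre is not given in the sources used here. The sort took cells negative for lineage markers, CD48 and CD150 and positive for c-kit, Sca1 and CD135, with 1000 cells in each of 4 NA and 4 WT libraries, which are named here NA1 to NA4 and WT1 to WT4. Ages, and whether libraries came from separate or pooled mice, are not given in the sources used here, so p-values measure the spread between libraries, which may be technical.

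The nuclear pore complex is the gate of the nuclear envelope. Stacked rings of scaffold nucleoporins hold a central channel lined by nucleoporins with phenylalanine-glycine (FG) repeats, and filaments reach from the rings into the cytoplasm and a basket reaches into the nucleus. Importins and exportins carry cargo through the FG meshwork, and the small GTPase Ran sets the direction of their travel. NUP98 is an FG nucleoporin that is also found away from the pore at active genes, and its FG-rich part is the portion that leukaemia fusions keep.

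Estimated depth ran from 3876907 to 4916950 reads per library, 4657571 ± 513122 in NA and 4376885 ± 531845 in WT (SD, n = 4 each). Kit, Ly6a and Flt3, which encode the 3 proteins the sort required, summed to 3905 to 4159 normalised counts in NA and 3967 to 4244 in WT, and of these Ly6a was lower in NA (log2 fold change -0.28, limma adjusted p = 0.0257). Cd48, whose protein the sort excluded, was low in both groups and lower in NA, at 17.7 ± 5.36 against 56.1 ± 21.3 (SD, n = 4; log2 fold change -1.58, limma adjusted p = 0.00711). Slamf1, which encodes CD150, was at 3.69 to 47.9 in NA and 16.9 to 30.6 in WT. Of the lineage markers Ly6g, Cd3e, Ms4a1 and Cdh5 were at 0 in every library, but others of the same kinds were not, with Cd79b at 87.4 to 256, Nkg7 at 115 to 150.3, Pecam1 at 33.7 to 69.2, Cd4 at up to 21.6 and Cxcl12 at up to 101 in NA3. Among the marker sums, the 8 erythroid genes summed to 35.4 to 64.9 in NA and 147 to 296 in WT. The 4 megakaryocyte genes summed to 168 to 232 in NA and 165 to 230 in WT. The 8 granulocyte and monocyte genes summed to 35.5 to 49.6 and 61.3 to 312, with S100a9 at 158 in WT3. The called genes of these lists were Hbb-bt (log2 fold change -1.99, limma adjusted p = 6.79e-05) and Mpo (-1.50, limma adjusted p = 0.0422), both lower in NA. The part of these markers in the results was not tested. The groups also differed in sex-linked transcripts, with Xist at 0.940 to 2.80 in NA and 869 to 1285 in WT, so that sex and genotype cannot be told apart. All 39 measured members lie on autosomes, where sex and genotype are likewise not separable. NA4 and WT4 each lay closest of their group to a weighted sum of the other 3, with an excess relative variance of 0.00836 for NA4 and 0.00131 for WT4 against 0.00876 to 0.0529 for the rest. NA4 was near WT1 (0.00876), while WT4 stood apart. Whether NA4 or WT4 shares cells or cDNA with other libraries is not given in the sources used here. The libraries may thus not all be independent, and SDs and p-values at n = 4 carry this limit. Results are therefore given with and without both.

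A normalised count is an estimated read count divided by 1 factor per library, and fold changes are differences of log2(normalised count + 1), NA minus WT, with p-values from limma adjusted over 11451 genes. In NA MPPs 5 members rose, Ranbp2, Kpna3, Nup54, Tnpo1 and Ndc1, and 4 fell, Nup93, Nup205, Rae1 and Nup210, at a threshold of 0.05. These 9 were 23.1% of the 39 members, beside 17.9% of all genes tested. In all genes 10.1% were called higher and 7.87% lower. The NA and WT values did not overlap for 9 members, 23.1%, beside 22% of all genes. The share of members called was thus near that of the whole table. The groups by role described below hold from 2 to 8 tested members each, so their counts say little about a role. The median log2 fold change was -0.01 for the members and -0.01 for all genes tested, with 18 members above 0 and 21 below. Without NA4 and WT4 4 members stayed called higher and 0 lower, while limma gave 10 members an unadjusted p under 0.05, 5 in each direction. Calls also fell over the whole table in that fit, to 370 higher and 145 lower of 11117 genes, or 4.63%. Leaving out 1 library gave 1 member lower without NA4 and 2 without WT1, WT3 or WT4, in place of 4. Over all genes 450 were lower without NA4, and 619, 666 and 479 without WT1, WT3 and WT4. When each library was scaled to an equal total, the members split into 4 higher and 5 lower, and all genes into 925 higher and 1314 lower in place of 1152 and 901. Bulk libraries do not tell fewer cells that express a gene from less RNA per cell.

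**Figure D1:**
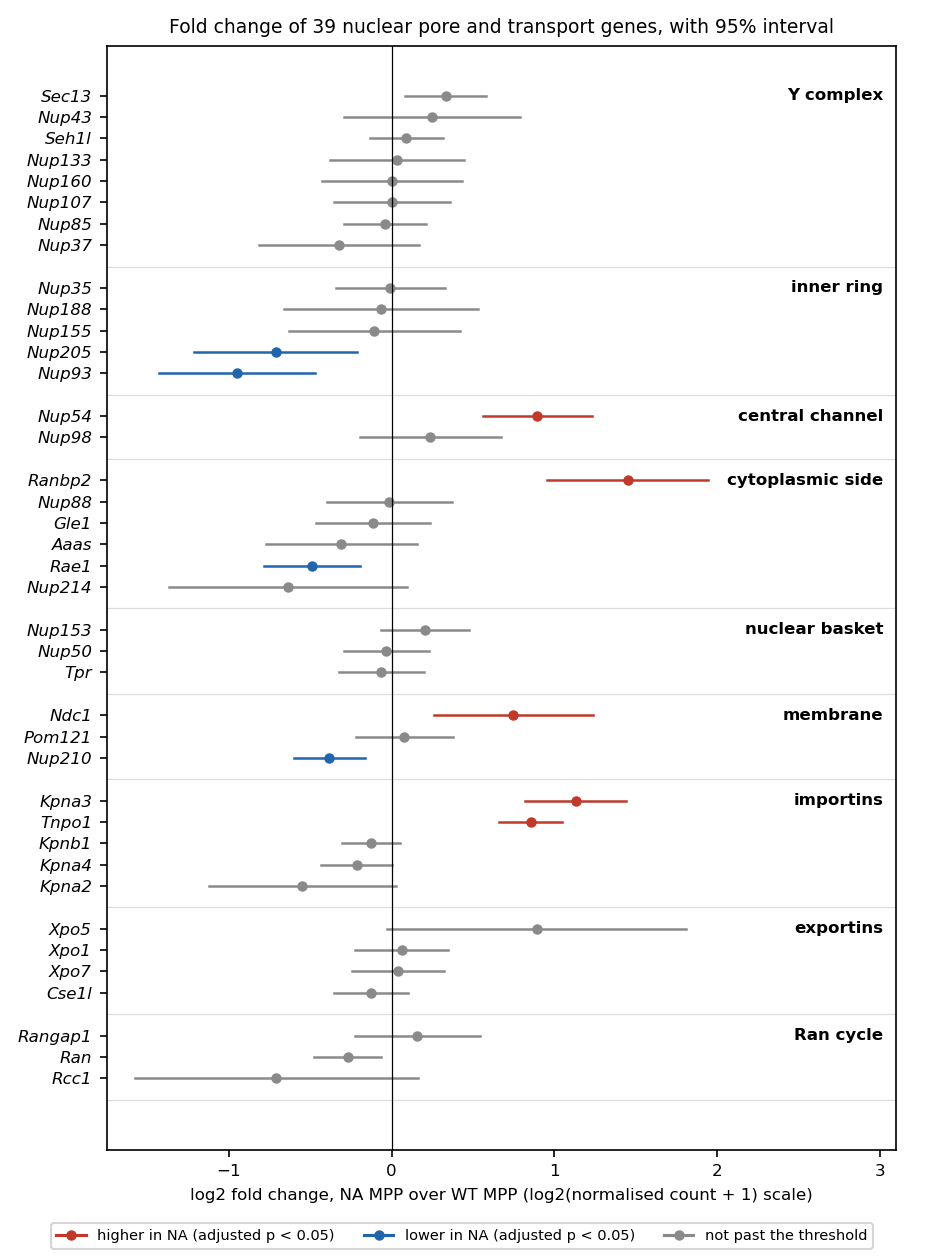
Log2 fold change of each of the 39 measured genes in NA over WT MPPs (points) with its 95% interval (lines), grouped by place in the pore or role in transport. The 5 genes in red were higher and the 4 in blue lower at an adjusted p under 0.05, and the 2 called genes of the inner ring are both lower while those of the cytoplasmic side and of the membrane are split.

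Promoter sequences were read for some of the changed members and, as shares of windows, for all members. The windows of Ndc1, Nup205, Rae1 and Nup210 are not printed or described singly. Windows of 250 bases before a RefSeq start (GRCm38.p6) were found for 33 of the 40 genes, 37 windows in all, and Kpna3 was not among them. The window at the start of the gene is printed for Ranbp2, Nup54 and Tnpo1, the called risers with a window that held under every setting, and for Nup93, the member with the lowest log2 fold change. They read 5′ to 3′ on the strand of the gene, and capitals mark matches on either strand to the 9 motifs GGGCGG of the GC box, CCAAT of the CCAAT box, CCGGAAG of the ETS core, GCATGCGC of the NRF1 core, TGACGTCA of the CRE, TGANTCA of the AP-1 site, CACGTG of the E-box, TGATTTAT of the HOX-PBX site and TGACAG of the MEIS site.
Ranbp2, chr10:58446602-58446851, plus strand: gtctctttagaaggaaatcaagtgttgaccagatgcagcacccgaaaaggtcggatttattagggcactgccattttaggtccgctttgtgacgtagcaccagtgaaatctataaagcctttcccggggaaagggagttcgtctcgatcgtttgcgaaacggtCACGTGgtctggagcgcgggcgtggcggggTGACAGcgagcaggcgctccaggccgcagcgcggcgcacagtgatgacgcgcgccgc
Nup54, chr5:92435200-92435449, minus strand: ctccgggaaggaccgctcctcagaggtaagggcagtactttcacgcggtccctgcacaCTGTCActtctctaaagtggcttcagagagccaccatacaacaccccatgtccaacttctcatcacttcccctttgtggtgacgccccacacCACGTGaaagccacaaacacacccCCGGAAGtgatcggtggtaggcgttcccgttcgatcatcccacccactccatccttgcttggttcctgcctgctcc
Tnpo1, chr13:98926385-98926634, minus strand: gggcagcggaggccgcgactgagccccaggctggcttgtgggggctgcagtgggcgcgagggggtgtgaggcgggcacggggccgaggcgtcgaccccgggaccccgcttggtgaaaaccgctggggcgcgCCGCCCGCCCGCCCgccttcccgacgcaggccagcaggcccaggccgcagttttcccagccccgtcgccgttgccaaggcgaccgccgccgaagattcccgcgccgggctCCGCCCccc
Nup93, chr8:94214314-94214563, plus strand: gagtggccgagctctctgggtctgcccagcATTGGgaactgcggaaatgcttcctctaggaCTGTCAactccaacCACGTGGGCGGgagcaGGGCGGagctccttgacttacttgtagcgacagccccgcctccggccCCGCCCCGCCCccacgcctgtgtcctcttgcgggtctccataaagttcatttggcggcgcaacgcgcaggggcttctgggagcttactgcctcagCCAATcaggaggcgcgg

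The 4 printed windows had from 57.2% to 78% GC and were not alike. Tnpo1 and Nup93 each had a second window at a downstream start, which is not printed, with 51.6% GC and a MEIS match for Tnpo1 and 39.2% GC, a CCAAT box and a MEIS match for Nup93. In its printed window Tnpo1 had 78% GC and 4 GC boxes, some of them overlapping, and no other match. The printed windows held 25 CpG dinucleotides for Ranbp2, 11 for Nup54, 33 for Tnpo1 and 18 for Nup93. Ranbp2 had an E-box and a MEIS match and no GC box, and Nup54 had an E-box, a MEIS match and an ETS core. Nup93, which fell, also held an E-box and a MEIS match, beside 4 GC boxes and 2 CCAAT boxes, with 1 GC box overlapping the E-box. The same letters were thus present in members that moved in opposite directions. Over all members a GC box was in 67.6% of windows, beside 32.7% of 32851 RefSeq windows, an ETS core in 18.9% beside 6.91%, an NRF1 core in 13.5% beside 2.26%, an E-box in 13.5% beside 6.02% and a MEIS match in 29.7% beside 15.9%. CCAAT was in 40.5% beside 33.8% and a CRE in 5.41% beside 1.55%. Some of these shares rest on few of the 37 member windows, 5 for the NRF1 core, 5 for the E-box and 2 for the CRE. The 32851 windows were not limited to genes expressed in MPPs, so a difference in share is not particular to transport genes. The median GC was 64% for member windows and 52.4% for all. The HOX-PBX letters were in 0 of 37 member windows, beside 0.837% of all windows, and the AP-1 letters in 0, beside 6.75%, which says only that these letters are not in these windows.

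The fusion partners came first as a check of the labels. Hoxa10, a homeobox transcription factor gene of blood progenitors (chr6:52231197-52240854, minus strand, mm10), was at 371, 298, 319 and 309 normalised counts in NA1 to NA4 and at 138, 138, 149 and 129.6 in WT1 to WT4. Its groups stood well apart, with a log2 fold change of 1.21 (SE 0.127, limma adjusted p = 2.57e-05), and whether its reads came from the gene or from the fusion cannot be told apart. Nup98 (chr7:102119398-102210176, minus strand) was at 98.02, 71.4, 86.8 and 83.9 in NA and 59.5, 88.3, 68.3 and 72.8 in WT. These values overlapped, and the log2 fold change of 0.24 (SE 0.202, limma adjusted p = 0.443) had a 95% interval from -0.19 to 0.67. Nup98 stayed short of the threshold under all 19 other settings tried, with log2 fold changes from 0.15 to 0.34. Reads of the endogenous Nup98 gene and of the fusion transcript cannot be separated in a table of gene counts. Per kb of its longest coding transcript Nup98 was one of the lowest members, 37th of 39, at 12.7 ± 1.63 in NA and 10.8 ± 1.80 in WT normalised counts per kb (SD, n = 4).

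The central channel otherwise held Nup54, an FG nucleoporin that lines the channel as a partner of NUP62. Nup54 (chr5:92415540-92435219, minus strand) had 299.6, 293, 240.1 and 341 normalised counts in the NA libraries and 188, 153, 124 and 167 in the WT libraries. Every NA value was above every WT value, and the mean was 294 ± 41.6 against 158 ± 26.9 (SD, n = 4). The log2 fold change was 0.89 (SE 0.157, limma adjusted p = 0.00167), and Nup54 stayed past the threshold under all 19 other settings, with the largest adjusted p, 0.0309, without NA4 and WT4. Per kb Nup54 reached 125 in NA and 67.2 in WT, above Nup98 in both groups.

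On the cytoplasmic side 1 of 6 members rose and 1 fell, or 33.3% called beside 17.9% of all genes. The riser was Ranbp2 (chr10:58446920-58494356, plus strand), which encodes the giant filament protein RANBP2, a docking site for RanGAP1 and a SUMO ligase. Ranbp2 stood at 231, 244, 289 and 255 normalised counts in NA1 to NA4 and 99.4, 134, 52.4 and 104 in WT1 to WT4. The lowest NA library was well above the highest WT library, and the group means of 255 ± 24.9 and 97.3 ± 33.6 (SD, n = 4) were in a ratio of 2.62. Ranbp2 had the largest log2 fold change of all 39 members, 1.45 (SE 0.231, 95% interval 0.96 to 1.94, limma adjusted p = 0.000802). Over the 19 other settings it ranged from 1.18 to 1.63 and the adjusted p did not pass 0.0127.

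Rae1 (chr2:173000117-173015739, plus strand), an mRNA export factor that binds NUP98, moved the other way. Its normalised counts were 350.1, 291, 312 and 259.8 in NA and 357, 395, 533 and 427 in WT. The groups nearly touched, at NA1 and WT1, with means of 303 ± 37.8 and 428 ± 75.5 (SD, n = 4). The log2 fold change was -0.49 (SE 0.138, limma adjusted p = 0.0256), and it missed the threshold under 7 of the 19 other settings, among them without NA2, NA4, WT3 or WT4 and without NA4 and WT4 (adjusted p = 0.1997). The other 4 members of the cytoplasmic side, Nup214, Nup88, Gle1 and Aaas, had log2 fold changes from -0.64 to -0.01 and adjusted p-values from 0.212 to 0.968. Nup214, which anchors mRNA export factors with NUP88, had the largest ratio of highest to lowest NA value of these 4, 4.09, from 30.8 in NA1 to 126 in NA2, against 109 to 141 in WT. Rae1 had the highest level per kb of this side, at 174 in NA and 246 in WT. The lowest was Nup214 in NA, at 13.3 beside 18.4 in WT, and Ranbp2 in WT, at 10.1 beside 26.5 in NA.

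The inner ring, the scaffold that frames the channel, held 2 members that fell among its 5, or 40% called beside 17.9% of all genes. Nup93 (chr8:94214564-94317227, plus strand), the linker that ties the ring to the channel, was at 49.5, 32.9, 44.3 and 44.9 normalised counts in NA and 91.4, 69.1, 80.8 and 92.3 in WT. The groups were apart with a gap between 49.5 and 69.1, and the means were 42.9 ± 7.05 and 83.4 ± 10.9 (SD, n = 4), a ratio of 0.514. The log2 fold change was -0.95 (SE 0.224, limma adjusted p = 0.0103). It held under 18 of 19 other settings and was -0.92 with an adjusted p of 0.118 without NA4 and WT4. From 35 to 53 estimated reads stood behind each NA value and 61 to 104 behind each WT value.

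Nup205 (chr6:35177421-35247596, plus strand), a large scaffold protein that binds NUP93, was at 85.9, 194, 84.9 and 135 in NA and 197, 219.7, 162 and 199 in WT. NA2 lay inside the WT range while NA1 and NA3 were the lowest of the 8. The log2 fold change of -0.71 (SE 0.235) was just past the threshold (limma adjusted p = 0.0491) and missed it under 12 of 19 other settings, including 7 of the 8 that each left out 1 library, all but NA2. Nup155, Nup188 and Nup35 had log2 fold changes of -0.11, -0.07 and -0.01, with adjusted p-values from 0.798 to 0.977. Nup35 was the most even of the 5, from 102 to 119 in NA and from 105 to 119.5 in WT, and per kb the highest of the ring at 70.8 and 71.2. Nup188 was the lowest per kb, at 13.8 in NA and 15.1 in WT.

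**Figure D2:**
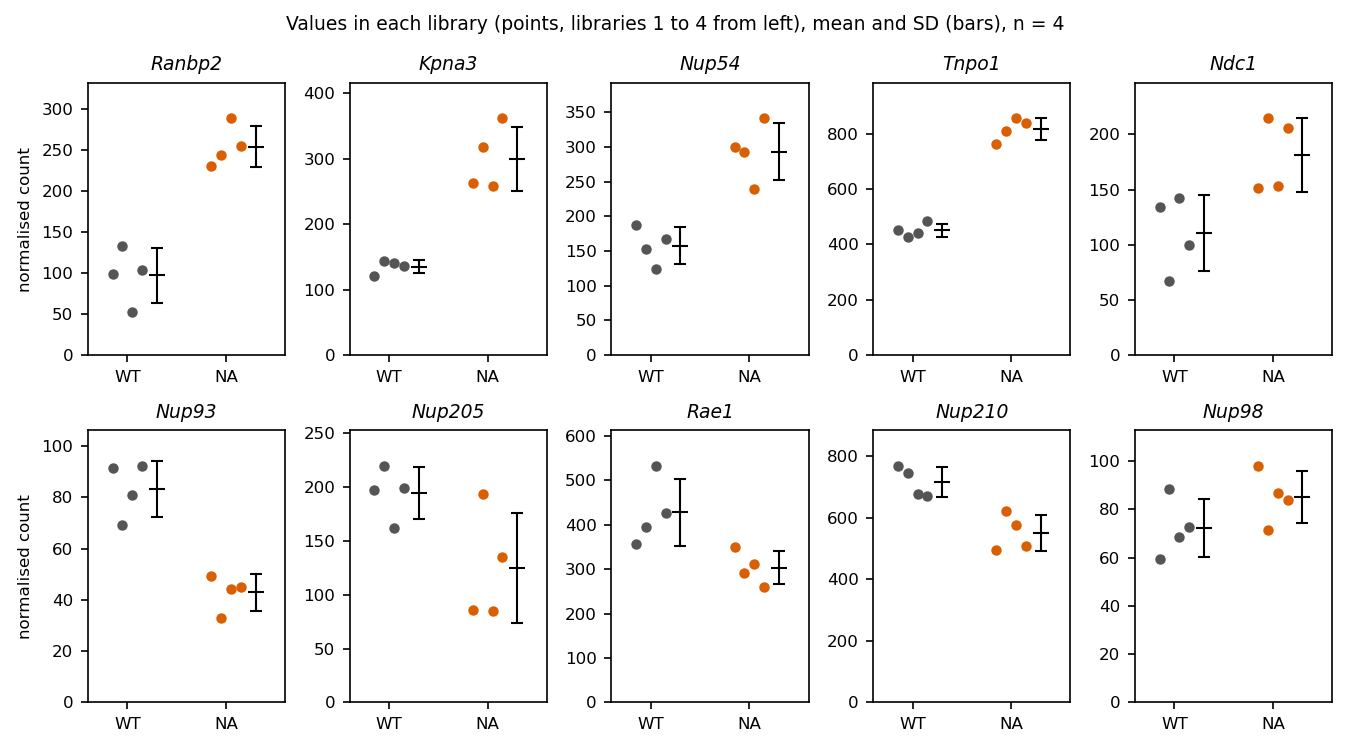
Normalised count of the 9 genes past the threshold and of Nup98 in each WT library (grey) and NA library (orange), with the mean and SD of each group at its right (n = 4). All NA values of Ranbp2, Kpna3, Nup54, Tnpo1 and Ndc1 lie above the WT values, those of Nup93, Rae1 and Nup210 lie below, and Nup205 and Nup98 overlap.

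Of the 3 membrane nucleoporins 1 rose and 1 fell, or 66.7% called beside 17.9% of all genes. Ndc1 (chr4:107367784-107416346, plus strand), which anchors the pore in the envelope, was at 151, 214, 153 and 206 normalised counts in NA and 134, 66.8, 142 and 99.4 in WT. The groups did not overlap but WT3 came close to NA1, and the log2 fold change of 0.75 (SE 0.228, limma adjusted p = 0.0362) was lost under 11 of 19 other settings, including equal totals, the GC correction, and the fits without NA2, NA4, WT2 or WT4. Nup210 (chr6:91013068-91116829, minus strand), a single-pass membrane protein with most of its mass in the lumen of the envelope, was at 495, 622, 575 and 508 in NA and 769, 744, 679 and 669 in WT. All NA values were below all WT values, with means of 550.0 ± 59.7 and 715 ± 48.8 (SD, n = 4) and a log2 fold change of -0.38 (SE 0.102, limma adjusted p = 0.0188). Nup210 stayed past the threshold under 14 of 19 other settings, and missed it without NA4, without WT1 and without NA4 and WT4 (adjusted p = 0.124). Pom121, the remaining membrane nucleoporin, was at 361 ± 56.5 and 342 ± 50.1 (SD, n = 4; limma adjusted p = 0.731), and shares 665 exon bases with Nsun5 on the opposite strand. Per kb Nup210 was the highest of the 3, at 78.2 in NA and 102 in WT, and Ndc1 the lowest, at 39.5 and 24.1.

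In the Y complex, the outer ring scaffold, limma called 0 of 8 members and 1 had an unadjusted p under 0.05. That member was Sec13, a protein that also builds COPII vesicle coats. Sec13 was at 318, 344, 355 and 351 normalised counts in NA and 257, 322, 257 and 255 in WT, where WT2 alone reached the NA range. Its log2 fold change was 0.33 (SE 0.117, limma adjusted p = 0.0638), and it passed the threshold under 2 of 19 other settings, without WT2 (adjusted p = 0.0279) and with the GC trend removed (0.0302). Nup107, Nup133, Nup160, Nup85, Nup37, Nup43 and Seh1l had log2 fold changes between -0.32 and 0.25, and the 95% interval of Nup107, a subunit of its stem, ran from -0.36 to 0.36. Per kb of the longest coding transcript, levels within the complex were far from even. Sec13 was the highest member, at 253 in NA and 202 in WT, and Nup160 the lowest, at 18.2 and 18.5.

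The nuclear basket was the most even group. Nup153, Tpr and Nup50 stood at 75.6, 59.4 and 72.8 normalised counts per kb in NA and 65.1, 62.4 and 74.1 in WT, so that the highest exceeded the lowest by 1.27 times in NA and 1.19 times in WT. Limma called 0 of the 3, and 0 had an unadjusted p under 0.05. Nup153, which docks import complexes at the basket, had the largest log2 fold change, 0.21 (SE 0.125, limma adjusted p = 0.274, 95% interval -0.06 to 0.47).

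**Figure D3:**
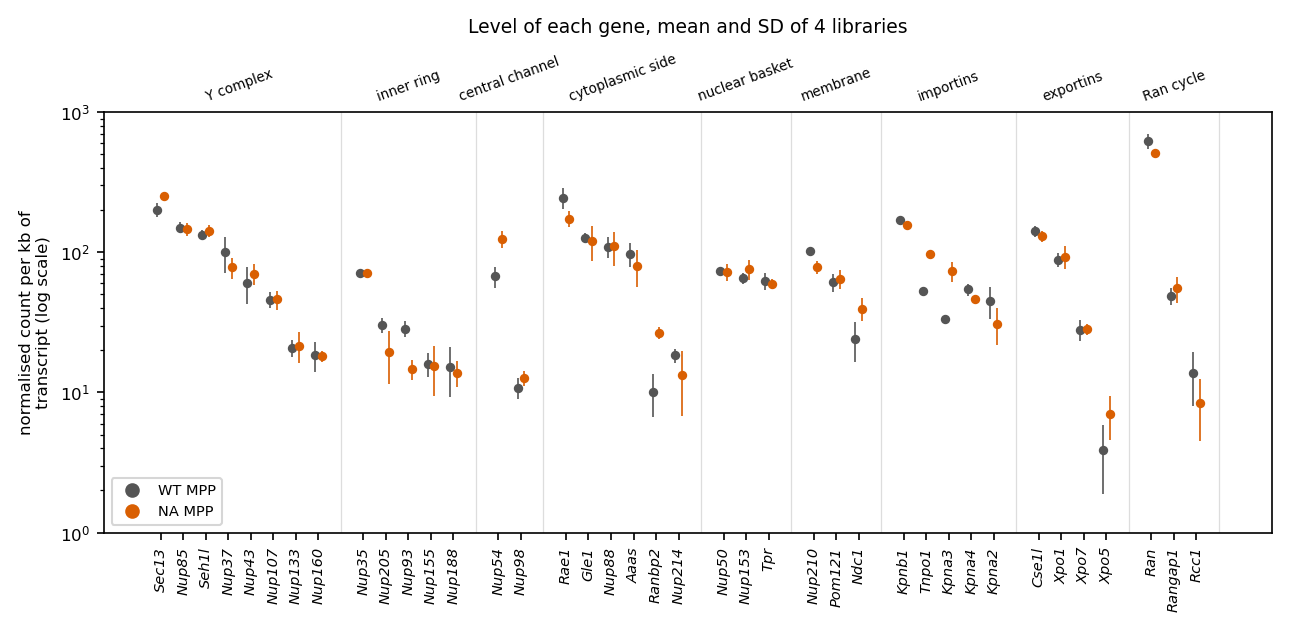
Mean normalised count per kb of the longest coding transcript (log axis) in WT (grey) and NA (orange) MPPs, with the SD of 4 libraries, for the 39 measured genes by role. Ran is the highest member, Xpo5 is the lowest, and the 3 basket genes lie close together.

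Among the import receptors 2 of 5 rose and 0 fell, or 40% called beside 17.9% of all genes. Kpna3 (chr14:61365211-61439874, minus strand) encodes an importin alpha, the adaptor that reads classical nuclear localisation signals. It was at 262, 318, 258 and 361 normalised counts in NA1 to NA4 and 121, 144, 141 and 136 in WT1 to WT4. No values overlapped, with means of 299.8 ± 49.3 and 135 ± 10.3 (SD, n = 4) in a ratio of 2.21, and the log2 fold change was 1.13 (SE 0.145, limma adjusted p = 0.000156). Kpna3 was called under all 19 other settings, with an adjusted p of at most 0.00734.

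Kpna4, the closest relative of Kpna3 among the importin alphas, did not share this rise. It stood at 419, 403, 401 and 422 in NA and 538, 422.4, 466 and 491 in WT, with NA4 just below WT2. The groups did not overlap, and the log2 fold change of -0.22 (SE 0.103) missed the threshold (limma adjusted p = 0.163). It passed it under 1 of 19 other settings, the GC correction (adjusted p = 0.0302). Kpna3 made up 38.5%, 44.1%, 39.1% and 46.2% of the summed Kpna3 and Kpna4 values in NA1 to NA4, and 18.3%, 25.4%, 23.3% and 21.7% in WT1 to WT4. The sum itself was 711 ± 54.6 in NA and 615 ± 38.7 in WT (SD, n = 4). The 2 genes are close in sequence, and how RSEM shared reads between them is not given in the sources used here. Their estimated reads were whole numbers in every library, such as 281 and 449 in NA1. Those of another importin gene, Ipo4, were not, at 356.3 in NA1. Sharing of reads between Kpna3 and Kpna4 was not tested. Kpna2, the importin alpha most tied to dividing cells, was lower in mean but overlapped, at 63.4 ± 18.4 and 92.7 ± 24.2 (SD, n = 4; limma adjusted p = 0.174).

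Tnpo1 (chr13:98839019-98926384, minus strand) encodes transportin 1, an importin beta family receptor that brings hnRNP proteins and other RNA-binding proteins into the nucleus without an adaptor. Its normalised counts were 762, 811, 855 and 837 in NA and 452, 428, 441 and 484 in WT. The gap between the groups was wide against the spread within them, with means of 816 ± 40.6 and 451 ± 23.9 (SD, n = 4). The log2 fold change was 0.85 (SE 0.0897), with the smallest adjusted p of all members, 2.65e-05 by limma, and all 19 other settings kept it, at an adjusted p of at most 0.0022. Kpnb1, importin beta 1 and the carrier of the importin alphas, was at 917 ± 62.9 and 998 ± 31.8 (SD, n = 4), with a log2 fold change of -0.12 and an adjusted p of 0.319 by limma. Per kb Kpnb1 was the highest import receptor, at 156 in NA and 169 in WT. The lowest was Kpna2 in NA, at 30.9 beside 45.1 in WT, and Kpna3 in WT, at 33.3 beside 73.7 in NA.

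Limma called 0 of the 4 exportins, and 0 had an unadjusted p under 0.05. Xpo1, the main exporter of proteins with leucine-rich export signals and a binding partner of NUP98 fusions, ranged from 452 to 652 in NA and from 452 to 590.4 in WT, and the 95% interval of its log2 fold change was -0.22 to 0.35. Cse1l, which returns importin alphas to the cytoplasm, had a log2 fold change of -0.13 and Xpo7 of 0.04. Xpo5, the exporter of precursor microRNAs, was the lowest member per kb, at 6.98 in NA and 3.89 in WT. Its normalised counts were 19.6, 35.7, 49.9 and 36.6 in NA and 18.6, 32.8, 7.97 and 19.5 in WT, and with 7 to 54 estimated reads per library its log2 fold change of 0.89 (SE 0.429, limma adjusted p = 0.166) could not be told from 0. Cse1l was the highest exportin per kb, at 130.3 and 142.

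In the Ran cycle limma called 0 of 3 members and 1 had an unadjusted p under 0.05. Ran itself was the most abundant member per kb, at 511 ± 33.8 in NA and 619 ± 75.8 in WT normalised counts per kb (SD, n = 4). Its counts were 1312, 1126, 1231 and 1284 in NA and 1521, 1269, 1718 and 1487 in WT, where WT2 lay within the NA range, and the log2 fold change was -0.27 (SE 0.0964, limma adjusted p = 0.0676). Ran passed the threshold under 5 of 19 other settings, among them equal totals, without WT2 and with the GC trend removed (adjusted p = 0.0304). Rcc1, the exchange factor that loads Ran with GTP on chromatin, was the lowest of the cycle, at 10.3, 32.0, 21.2 and 15.4 in NA and 25.7, 52.1, 22.8 and 27.5 in WT. With 11 to 46 estimated reads per library, its log2 fold change of -0.71 had a 95% interval from -1.58 to 0.16. Rangap1, which triggers GTP hydrolysis on the cytoplasmic side, was at 168 ± 35.6 and 149 ± 20.2 (SD, n = 4; limma adjusted p = 0.573).

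Across the 39 members the summed normalised counts hardly differed, at 11915 ± 320 in NA and 11802 ± 181 in WT (SD, n = 4), or 0.260% and 0.270% of all normalised counts. The median coefficient of variation of a member was 15.6% in NA and 13.6% in WT, beside 17.1% and 14.9% over all genes tested. Per kb the range from the lowest to the highest member spanned 73.2 times in NA and 159 times in WT.

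GC content moved with the fold changes. Kpna3, Tnpo1 and Ranbp2 had 39.6%, 40.4% and 40.6% GC in their longest coding transcripts, which ranked 1, 3 and 5 from the lowest of the 39, and their reported log2 fold changes of 1.13, 0.85 and 1.45 became 0.98, 0.71 and 1.31 once a GC trend was removed in each library. All 3 stayed past the threshold, with limma adjusted p-values of 0.000384, 0.000254 and 0.00308. The other 4 of the 7 members under 42% GC, Kpna4, Xpo1, Cse1l and Seh1l, had reported log2 fold changes from -0.22 to 0.09. Rae1 and Nup210, at 53.7% and 55.0% GC, went from -0.49 and -0.38 to -0.40 and -0.27, and Nup210 then missed the threshold (adjusted p = 0.0896). As a description, Pearson's r of GC with log2 fold change was -0.40 over the 39 members, which share the 8 libraries, and -0.19 over the 11167 tested genes with a GC value.

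**Figure D4:**
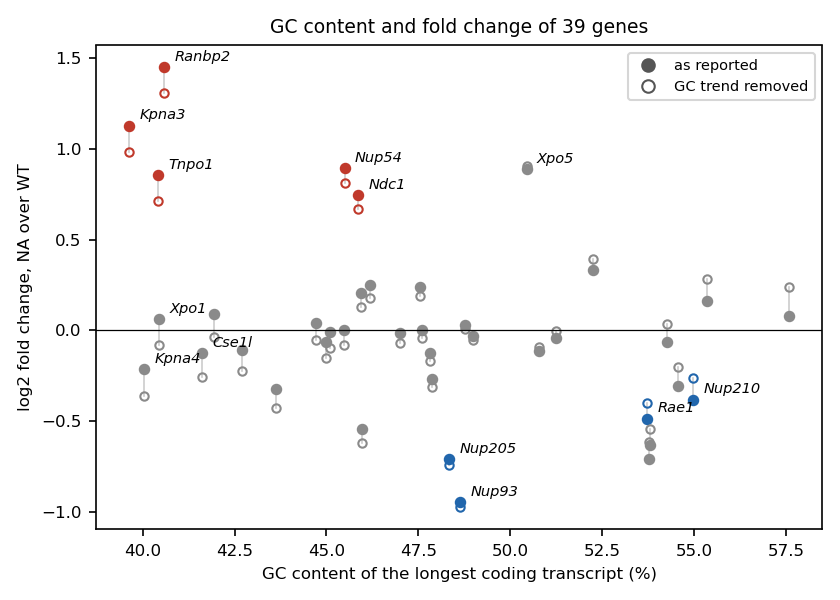
GC content of the longest coding transcript (%) against log2 fold change for the 39 genes, as reported (filled) and with the GC trend of each library removed (open, joined by a grey line), in red for genes called higher, blue for lower and grey for the rest. Kpna3, Tnpo1 and Ranbp2 lie at the low-GC end beside Kpna4 and Xpo1, and remain near or above 0.71 after the correction.

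**Figure D5:**
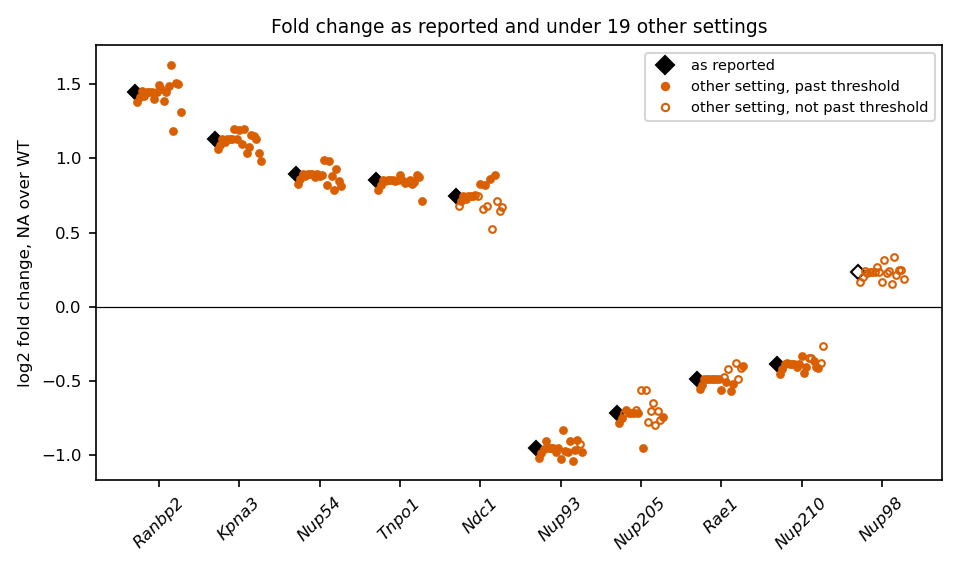
Log2 fold change of the 9 called genes and Nup98 as reported (black diamond) and under 19 other settings (circles, filled where past the threshold). Ranbp2, Kpna3, Nup54 and Tnpo1 are filled throughout, Nup93 is open once, and Ndc1, Nup205, Rae1 and Nup210 are open in 11, 12, 7 and 5 settings.

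A second list of 59 transport genes that are not members was read in the same fit, of which 57 were tested. There 5 rose and 7 fell, or 21.1% beside the 17.9% of all genes, and the median log2 fold change was 0.01. Without NA4 and WT4 3 were called higher and 0 lower, while limma gave 15 of 56 an unadjusted p under 0.05, 10 of them lower. In that fit 370 of all 11117 genes were called higher and 145 lower. Without NA1 the count of higher genes was 10, beside 1160 of all genes. Without NA4 or WT4 the count of lower genes was 4, beside 450 and 479 of all genes.

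Of the called genes in that list the 3 highest values belonged to Rcc2, Alyref and Ipo8. Rcc2, a relative of Rcc1 with a role in mitosis, had 967, 794, 1004 and 855 normalised counts in NA and 178, 388, 212 and 264 in WT, a log2 fold change of 1.85 (SE 0.187, limma adjusted p = 1.8e-05). Every NA value lay well above the highest WT value. Alyref, the adaptor that hands mRNA to the export receptor, was at 131, 151, 187 and 164 in NA and 24.0, 77.0, 55.8 and 75.5 in WT, again without overlap (log2 fold change 1.55, SE 0.307, limma adjusted p = 0.00367). Ipo8, an importin beta family receptor, was at 226 ± 42.4 and 116 ± 9.63 (SD, n = 4; limma adjusted p = 0.0017 for a log2 fold change of 0.93).

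The 3 lowest called values belonged to Thoc6, Rangrf and Emd. Thoc6, a subunit of the THO complex that couples transcription to mRNA export, was at 126, 99.6, 89.6 and 104 in NA and 239, 287, 138 and 239 in WT, where WT3 was the nearest to the NA values (log2 fold change -1.06, SE 0.209, limma adjusted p = 0.00361). Rangrf, which releases nucleotide from Ran, was at 157 ± 22.7 and 243 ± 24.3 (SD, n = 4; log2 fold change -0.63, limma adjusted p = 0.00885). Emd, which encodes emerin of the inner nuclear membrane and lies on the X chromosome, was at 163 ± 17.4 and 253 ± 40.7 (SD, n = 4; log2 fold change -0.62, limma adjusted p = 0.011). Its difference, like that of every gene here, cannot be told apart from that in sex. By role, 3 of 5 other Ran cycle genes, 4 of 11 other importins, 1 of 3 other exportins, 3 of 23 mRNA export genes and 1 of 7 nuclear envelope genes were called, and limma called 0 of 4 other pore proteins and 0 of 4 SUMO genes, of which 0 and 1 had an unadjusted p under 0.05. Of all genes tested 17.9% were called, and with 3 to 23 genes each these counts say little about a role.

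Reads shared with other genes were looked for among the members. None of the 9 called members shared exon bases with another gene of GENCODE M21, while 12 of the other members did, among them Rcc1 with Snhg3 on the same strand. Rasl2-9, a near copy of Ran, was listed at 0 in every library, and Kpna2-ps reached at most 13.7 normalised counts.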

How the data were processed

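RNA of sorted MPP aliquots was amplified as cDNA and made into Nextera XT libraries. Per the labels, the authors used bcl2fastq, RSEM and DESeq2 with build mm10; versions, annotation and strand use are not given in the sources used here. Although its name speaks of raw counts, the deposited table holds a normalised signal, namely RSEM counts over 1 factor per library. Low values were multiples of a step between 0.888 and 1.18 in each library (98.5% to 99.1% whole within 0.1), which gave the estimated reads. These were used for depth and to see whether the Kpna3 and Kpna4 reads were whole. Depth reflects counting error only, since the cDNA was amplified without molecular identifiers, while the 95% intervals come from the spread between libraries.

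GENCODE M21 gave names, positions, GC and lengths (per kb of the longest coding transcript). Which transcripts the cells used was not measured, so ranks per kb across genes depend on this choice of length. It named 32916 of 37980 rows and 93.8% of the 17710 above 0, and the unnamed rows held 0.779% of the signal. Genes with at least 10 in at least 4 of 8 libraries (11451) were tested with limma 3.58.1 (R 4.3.3) on log2(value + 1), with a mean-variance trend, NA MPP against WT MPP, no covariate, two-sided, with Benjamini-Hochberg adjustment and a threshold of 0.05. The script was tested on simulated data. Because the values were already scaled, no count model was used. Nup98, Hoxa10, all called members, members without overlap, the highest and lowest member per kb in each role, and the 3 highest and 3 lowest called genes of the second list were named by rule, and the others were chosen after their values were seen. Members and lists were chosen with earlier results of these data known. Protein repeats were planned but not counted here. Promoter windows came from RefSeq. Alternatives were other scalings, added constants, filters, no trend, a depth covariate, the replicate block, GC removal by loess and left-out libraries.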

Additional observations from a re-analysis of the deposited data

Results flagged for a closer look

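A library was singled out where it lay apart from the other 3 of its group by a larger part of the group's range than Dixon's 95% limit for 4 values. Of 80 groups of values checked 7 met this, while chance gives about 1 in 20, or 4. Nup85 stood at 379.9 normalised counts in NA1, with the other NA libraries from 302 to 313. Nup43 was at 44.2 in WT2 against 85.2 to 92.2. Sec13 was at 322 in WT2 against 255 to 257, and Rcc1 at 52.1 in WT2 against 22.8 to 27.5. Tpr was at 501 in NA4 against 420.2 to 431, and Pom121 at 445 in NA3 against 327 to 344. The estimated depth of NA4 was 3887904 reads against 4909362 to 4916950 in the other NA libraries. None of these 6 genes was among the 9 past the threshold. The cause of each gap was not tested.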

How the results depend on the processing

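Single-gene comparisons over 19 other settings were counted for the 9 called members, Kpna4 and Nup98. Of these 209, 172 kept direction and side of the threshold, 36 lost the call, 1 gained it and 0 reversed. The 172 include settings in which genes simply stayed uncalled, 19 for Nup98 and 18 for Kpna4. The lost calls were 12 for Nup205, 11 for Ndc1, 7 for Rae1, 5 for Nup210 and 1 for Nup93. Outside this count Ran gained a call under 5 settings and Sec13 under 2. Ranbp2, Kpna3, Nup54 and Tnpo1 kept their calls throughout. The median log2 fold change of the members was -0.0823 with libraries scaled to equal totals, where that of all genes was -0.0793, and -0.0723 with the GC trend removed. Members called lower numbered 4 as reported, 2 with no filter on low values and 1 with no variance trend. They numbered 0 without NA4 and WT4 and 1 to 4 when 1 library was left out. Over all genes 901 were lower as reported, 704 with no filter, 595 with no variance trend and 145 without NA4 and WT4. In the second list, 7 were lower as reported, 11 with equal totals, 0 without NA4 and WT4 and 4 to 7 with 1 library left out, and 5 were higher as reported, 3 without NA4 and WT4 and 4 to 10 with 1 library left out. Over all genes 2053 were called as reported, 1574 with no filter on low values, 1420 with no variance trend, 1571 with a depth covariate, 1106 without NA4, 1294 without WT4 and 515 without NA4 and WT4, but 2107 without NA1 and 2141 without NA3. The cause of these shifts was not tested.

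With the replicate number as a block, 4 members were higher and 5 lower, and 2004 of all genes were called; Ndc1 lost its call (adjusted p = 0.0602) and Ran gained one (adjusted p = 0.047). Same-numbered NA and WT libraries had correlations of deviations of 0.0874, 0.0271, 0.0131 and 0.158, and not every library correlated best with its own number, so they were not taken as paired. Depth limits the members with few reads, Xpo5 and Rcc1, and 4 libraries a group limit all.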
